A study of Rattus norvegicus with 2 samples.

Results

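The 9 genes described here carry water, potassium and bicarbonate handling by Müller glia, the radial glial cells of the retina, together with the complex that anchors the channels in the membrane. They were chosen by name: Aqp4, Aqp1 and Trpv4 for water and cell volume, Kcnj10 for potassium, Car2, Car14 and Slc4a4 for bicarbonate, and Dag1 and Dmd for anchoring. All 9 are among the 32662 genes of the deposited table, and 8 of them are among the 13599 genes with an FPKM (fragments counted for a gene, scaled for transcript length and for the size of the library) of at least 1 in at least 1 library. The exception was Trpv4.

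The study sequenced total RNA depleted of ribosomal RNA from the retina of Long-Evans rats aged 2 months. The animals were female according to the methods of the study. The control library, CTRL, came from a retina that went through a sham procedure. The other library, IR12, came from a retina injured by ischemia followed by reperfusion and collected 12 hours after the reperfusion. There was 1 library per condition, so no difference given here has a replicate check, and an effect of the injury cannot be told apart from any other difference between the 2 samples.

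Müller cells span the retina from the photoreceptors to the vitreous and take up the potassium that active neurons release. They pass it on through inwardly rectifying channels that are concentrated, next to aquaporin water channels, on the endfeet facing vessels and vitreous, where dystroglycan ties the membrane to laminin outside and dystrophin inside. They also hydrate the CO2 made by photoreceptors with carbonic anhydrases and export the resulting bicarbonate by cotransport with sodium.

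The libraries held Müller glia transcripts in quantity. All 15 Müller glia markers examined had an FPKM of at least 1 in at least 1 library. Glul, which encodes glutamine synthetase, had 754 FPKM in CTRL and 126 in IR12. Rlbp1, the retinaldehyde-binding protein of Müller glia and pigment epithelium, had 126 in CTRL and 26.8 in IR12. Slc1a3, the glial glutamate transporter, had 108 in CTRL and 44.3 in IR12. The tissue was whole retina, however, and the summed FPKM of 9 rod markers was 18413 in CTRL and 21954 in IR12. A member's FPKM therefore sums over every retinal cell that expresses it, and several members are known outside Müller glia: Car2 and Aqp1 in some neurons and in red blood cells, Aqp4 in astrocytes, Dmd and Dag1 in photoreceptors.

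Differences are given as the log2 ratio of FPKM + 1, IR12 over CTRL, and a gene was counted as higher or lower when the ratio reached 2-fold on this scale. Of the 8 members with sufficient FPKM (at least 1 in at least 1 library), 5 were at least 2-fold lower in IR12 (Aqp4, Car14, Kcnj10, Car2 and Aqp1) and 0 were at least 2-fold higher. Among all 13599 genes, 6.12% were lower and 6.56% were higher by the same rule. The members had a median log2 ratio of -1.59, against 0.02 for all 13599 genes. Kcnj10 entered the count through CTRL alone, since its FPKM in IR12 was below 1, so its place among the lower genes was partly set by the filter. The same limit holds, in the lists below, for every counted gene with an FPKM below 1 in either library. Summed over the 9 members, FPKM was 915 in CTRL and 376 in IR12. In whole tissue, fewer Müller cells and less RNA per Müller cell cannot be told apart.

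**Figure D1:**
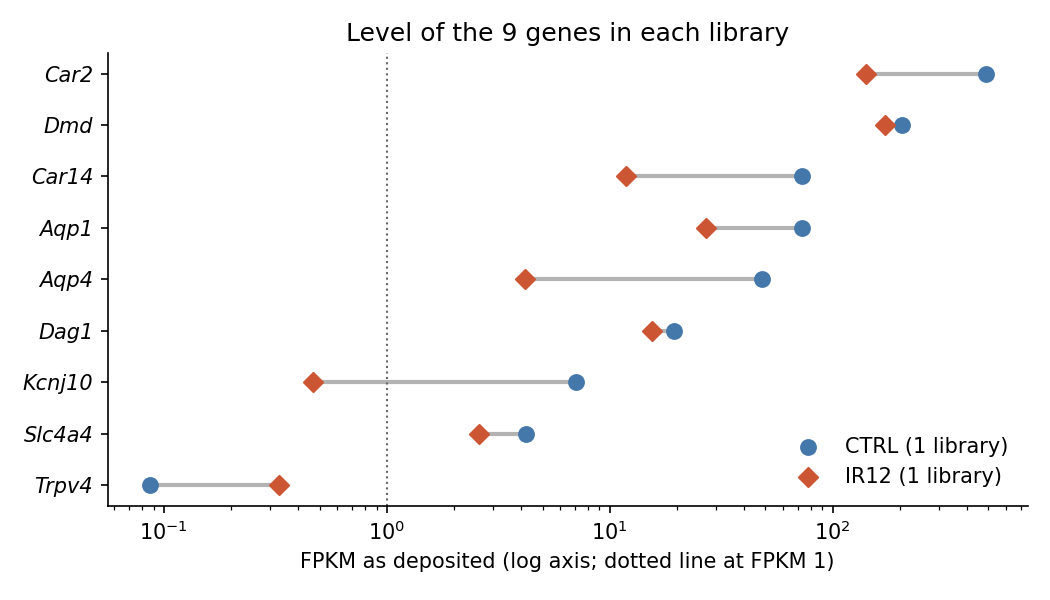
FPKM of each of the 9 genes (log axis) in the CTRL library (circles) and the IR12 library (diamonds), 1 library each, ordered by level in CTRL. Aqp4 (48.0 and 4.16) and Kcnj10 (7.07 and 0.467) are widely separated, whereas Dmd (204 and 172) and Dag1 (19.5 and 15.4) lie close together, and Trpv4 lies below 1 in both.

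Genes known as lens markers differed between the libraries in the same direction. Whether their transcripts came from lens tissue was not tested. All 10 lens markers were at least 2-fold lower in IR12 and their log2 ratios had a median of -2.70. Their summed FPKM was 3454 in CTRL and 411 in IR12, the most abundant being the crystallin gene Cryba1 at 1614 and 196, and none of the 10 was at 0 in either library. The part of lens tissue in the members' values was not tested. Blood cell transcripts, which could carry Car2 and Aqp1, were low: 7 of the 11 markers listed were in the table, and their summed FPKM was 28.7 in CTRL and 53.2 in IR12. Hbb, the most abundant of them, was at 20.4 and 35.1. Hba-a2 was at 6.77 and 17.1, and it was the 1 of 2 blood cell markers with sufficient FPKM that was at least 2-fold higher as deposited. The erythroid markers Alas2 and Slc4a1, named after their values were seen, were under 1 in both libraries. The part of blood cells in the members' values was not tested.

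The scale on which the libraries are compared matters for the smaller differences. The deposited FPKM added up to 1402321 for CTRL and 895200.0 for IR12. Of these totals, 68.1% and 46.4% belonged to small non-coding RNAs. With these RNAs left out, an equal sum multiplied IR12 by 0.933. Rescaling both libraries to the same sum (the TPM scale) multiplied IR12 by 1.57 and moved the median of all 13599 genes to 0.61. On that scale 3051 genes were higher and 473 lower, so that 86.6% of the genes past the limit were higher, compared with 51.7% as deposited. The 10 lens markers were all at least 2-fold lower on that scale too. Of the blood cell markers with sufficient FPKM, 2 were at least 2-fold higher on it. The TPM scale left 4 members at least 2-fold lower, Aqp1 no longer reached the limit, and the median log2 ratio was -0.95. Gapdh, a glycolytic gene expressed in all cells, was at 716 FPKM in CTRL and 690.1 in IR12, which is a log2 ratio of -0.05 as deposited and 0.59 on the TPM scale. Actb, the cytoplasmic actin gene, was at 260 and 537, with ratios of 1.04 and 1.69.

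Because 5 members were lower together, the promoters of those found in the reference table are shown with short motifs that many genes share. RefSeq promoters on GRCr8, from 250 bases before to 50 bases after each start, were found for 7 of the 9 members, with 10 entries in all, and Car2 and Dag1 had none. The motifs searched on both strands were the TATA box spelled TATAAA, the promoter element CCAAT, the GC box spelled GGGCGG, the Sox core spelled ATTGT, the E-box spelled CACGTG, the STAT element spelled TTCNNNGAA and the Crx core spelled TAATCC. Kcnj10 lies at chr13:87334260-87334559 on the plus strand, Aqp1 at chr4:85812534-85812833 on the plus strand and Car14 at chr2:186138115-186138414 on the minus strand. Of the 2 starts listed for Aqp4, the upstream start is shown, at chr18:6798793-6799092 on the minus strand. Each sequence is printed 5′ to 3′ on the strand of its gene, and capitals mark a match to any of the 7 motifs on either strand.
Kcnj10: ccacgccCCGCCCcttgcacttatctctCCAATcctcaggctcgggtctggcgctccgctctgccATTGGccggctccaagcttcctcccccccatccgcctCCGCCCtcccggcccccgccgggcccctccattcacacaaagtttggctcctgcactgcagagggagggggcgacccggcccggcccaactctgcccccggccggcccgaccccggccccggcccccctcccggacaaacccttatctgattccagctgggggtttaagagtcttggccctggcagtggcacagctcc
Car14: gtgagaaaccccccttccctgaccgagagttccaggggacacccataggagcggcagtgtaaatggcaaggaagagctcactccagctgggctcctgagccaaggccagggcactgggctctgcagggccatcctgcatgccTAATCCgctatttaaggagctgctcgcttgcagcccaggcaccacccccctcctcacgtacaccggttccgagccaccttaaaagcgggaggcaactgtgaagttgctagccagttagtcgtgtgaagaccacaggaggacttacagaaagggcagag
Aqp1: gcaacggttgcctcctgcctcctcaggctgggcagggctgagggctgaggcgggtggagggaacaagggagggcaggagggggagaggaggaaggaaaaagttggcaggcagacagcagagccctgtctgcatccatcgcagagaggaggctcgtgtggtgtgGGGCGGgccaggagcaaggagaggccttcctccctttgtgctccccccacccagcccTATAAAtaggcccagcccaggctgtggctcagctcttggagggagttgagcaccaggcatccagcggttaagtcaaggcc
Aqp4: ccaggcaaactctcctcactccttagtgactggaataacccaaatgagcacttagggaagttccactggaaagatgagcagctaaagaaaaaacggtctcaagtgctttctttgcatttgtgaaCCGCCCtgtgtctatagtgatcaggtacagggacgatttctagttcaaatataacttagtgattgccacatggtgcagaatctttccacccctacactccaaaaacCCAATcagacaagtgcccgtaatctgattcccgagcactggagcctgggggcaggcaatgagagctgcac

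The GC box was found in 3 of the 4 promoters and CCAAT in 2 of them. GGGCGG was also matched in Trpv4, which could not be compared, and at some starts of Dmd, which was within the 2-fold limit. The GC box was thus not particular to the lower members. Kcnj10 held 2 matches to CCAAT and 2 to GGGCGG, and the upstream Aqp4 start held 1 match to each. The other Aqp4 start had no match to any of the 7 motifs, so these tallies hold for the start shown. Aqp1 had 1 match to GGGCGG and 1 to TATAAA, which began 30 bases before the start. Car14 had a match to TAATCC alone. GGGCGG was present in 33.1% of all 33469 rat promoters in the table, CCAAT in 37.5%, TATAAA in 14.2% and TAATCC in 7.17%. None of the 10 entries matched the Sox core (present in 33.7% of all promoters), the E-box (6.42%) or the STAT element (8.87%). Base composition also differed: G and C made up 70.3% of the Kcnj10 promoter, 64.0% of Aqp1, 59.0% of Car14 and 47.3% of Aqp4, beside a median of 51.7% over all promoters. A match is a description of the letters only.

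Aqp4 encodes the main water channel of Müller endfeet and of astrocytes. Its FPKM was 48.0 in CTRL and 4.16 in IR12, 11.5-fold lower. This gave a log2 ratio of -3.25, the lowest of the members, and only 119 of the 13599 genes (0.875%) had a ratio at or under it. Its log2 ratio on the TPM scale was -2.70. The gene lies on rn6 at chr18:6765945-6782996, and no other gene of the table overlaps it.

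Aqp1 encodes a water channel that in rodent retina is better known from photoreceptors and some amacrine cells than from Müller glia. Its FPKM was 72.8 in CTRL and 26.9 in IR12, 2.70-fold lower (chr4:85551502-85569360 on rn6). Its log2 ratio was -1.40 as deposited and -0.77 on the TPM scale, so the 2-fold limit was reached on the deposited scale but not on the TPM scale. Aqp1 was lower by less than Aqp4, and the relation between the channels shifted. The FPKM of Aqp1 was 1.51 times that of Aqp4 in CTRL and 6.47 times in IR12. Within each library this ratio does not depend on the scaling between libraries. Their summed FPKM was 121 in CTRL and 31.1 in IR12.

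Of the 10 further aquaporin genes, 2 reached an FPKM of 1, of which 1 was at least 2-fold lower in IR12. That gene was Mip, the lens fibre aquaporin, at 16.1 in CTRL and 1.67 in IR12, and it is also among the lens markers. Aqp11, an aquaporin of intracellular membranes, was at 2.03 and 1.36. Of the summed FPKM of all aquaporins, Aqp4 made up 34.4% in CTRL and 11.9% in IR12, whereas Aqp1 made up 52.1% and 76.8%.

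Trpv4, a calcium-permeable channel gated by cell swelling, could not be compared. Its FPKM was 0.0863 in CTRL and 0.328 in IR12 (chr12:47698947-47737902 on rn6). What 1 read adds to such values was read from olfactory receptor genes of equal length, whose low FPKM repeat in whole multiples: for a coding length of 939 bp the lowest repeated value was 0.0881 in CTRL and 0.0516 in IR12. Over 5 such lengths, all 67 values above 0 were whole multiples within 0.02, and the median ratio of these steps, CTRL over IR12, was 1.71. Trpv4 was at 0.979 times the 939 bp step in CTRL and 6.37 times in IR12. Its CTRL value was thus no larger than what 1 read gives a gene of that length, and no fold is given. The transcript length behind the FPKM of Trpv4 was not used here, so these multiples are not read counts of Trpv4. Of 12 other genes of volume and osmotic signalling with sufficient FPKM, 1 was at least 2-fold lower and 0 were higher, with a median log2 ratio of -0.26 as deposited and 0.35 on the TPM scale. The lower gene was P2ry1, a purine receptor of the glial volume response, at 5.73 in CTRL and 2.28 in IR12. On the TPM scale P2ry1 was at -0.56, and 0 genes of this list were lower and 1, Lrrc8a, was higher, with a log2 ratio of 1.11. The taurine transporter Slc6a6, which carries an organic osmolyte and was the most abundant of these genes in CTRL, was at 220.3 and 114.

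Kcnj10 encodes the inwardly rectifying channel that carries most of the potassium conductance of Müller glia. With 7.07 FPKM in CTRL and 0.467 in IR12 it was 15.1-fold lower, the largest fold among the members on plain FPKM. Its log2 ratio of -2.46 was less extreme than that of Aqp4, since adding 1 to a value below 1 shrinks the ratio, and 191 of the 13599 genes (1.40%) were at or under it. The TPM scale gave -2.22. In IR12 Kcnj10 was at 9.05 times the step of 1 read at 939 bp, against 80.3 times in CTRL. The transcript length behind its FPKM was not used here, so these multiples are not read counts of Kcnj10. The gene lies at chr13:90723092-90752581 on rn6 without overlap.

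Of 15 other potassium channels of the inward rectifier and tandem pore families with sufficient FPKM, 3 were at least 2-fold lower as deposited and 0 were higher, with a median log2 ratio of -0.56. On the TPM scale 0 were lower and the median was -0.02. Kcnj3, a subunit of G protein-gated channels, was at 6.95 in CTRL and 2.62 in IR12. Kcnj12, a strong inward rectifier, was at 3.38 and 1.12. Kcnj13, known from the apical membrane of pigment epithelium, was at 8.55 and 3.64. Kcnj16, whose product pairs with that of Kcnj10, was at 0.124 and 0.0485 and was named here after its values were seen. Kcnj14 had the highest FPKM of the family, 259 in CTRL and 164 in IR12. None of these log2 ratios was as low as that of Kcnj10.

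Potassium is also moved by the sodium pump and by cotransport with chloride. Of 11 such genes, 2 were at least 2-fold lower in IR12 and 1 was higher, and the median log2 ratio was -0.14. The TPM scale gave 1 lower, 2 higher and a median of 0.50. Atp1b3, a beta subunit of the pump and 1 of the 2 lower genes, was at 170.0 in CTRL and 71.3 in IR12 but within the limit on the TPM scale, and Atp1b2, the beta subunit known from glia, was at 135 and 80.5. The higher gene was Slc12a4, a potassium-chloride cotransporter used in cell volume control, at 1.47 in CTRL and 6.14 in IR12.

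**Figure D2:**
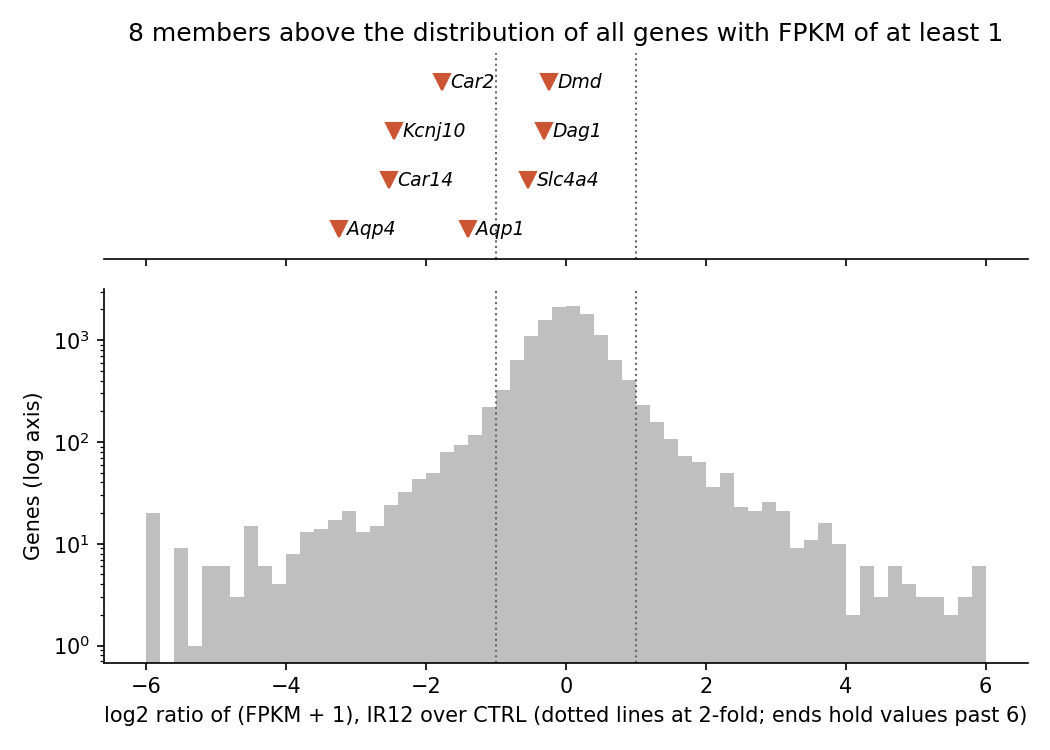
Log2 ratio of FPKM + 1, IR12 over CTRL, of the 8 members with sufficient FPKM (triangles, upper panel) and of all 13599 genes (histogram on a log count axis, lower panel), with dotted lines at 2-fold. Members run from -3.25 for Aqp4 to -0.24 for Dmd, and 5 of them lie past the lower line, as do 6.12% of all genes.

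Car2 encodes the abundant cytosolic carbonic anhydrase, found in Müller glia and in some retinal neurons. It had the highest FPKM of the members in CTRL, 486, and 142 in IR12, 3.43-fold lower (chr2:88097720-88113029 on rn6). The log2 ratio of Car2 was -1.77, and -1.13 on the TPM scale. Its level in IR12 was second among the members, after that of Dmd.

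Car14 encodes the carbonic anhydrase anchored in the Müller cell membrane with its active site outside the cell. CTRL held it at an FPKM of 72.9 and IR12 at 11.8, 6.17-fold lower (chr2:198010349-198016898 on rn6). Its log2 ratio was -2.53, with 182 of the 13599 genes (1.34%) at or under it, and -1.92 on the TPM scale. The membrane enzyme was thus lower by more than the cytosolic enzyme: the FPKM of Car2 was 6.67 times that of Car14 in CTRL and 12.0 times in IR12. Their summed FPKM was 559 in CTRL and 154 in IR12.

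Sufficient FPKM was found for 7 of the 14 other carbonic anhydrase genes. Of these, 2 were at least 2-fold lower and 0 higher as deposited, with a median log2 ratio of -0.03. On the TPM scale 1 was lower and 2 were higher, with a median of 0.61. The lower genes were Car6, a secreted form, at 7.91 in CTRL and 1.20 in IR12, and Car5b, a mitochondrial form, at 2.98 and 0.649. Car10, the most abundant of the 14, encodes a related protein without enzyme activity and was at 62.1 and 60.6. Car11, which also lacks activity, was at 28.3 and 50.9. Car2 accordingly made up 70.4% of the summed carbonic anhydrase FPKM in CTRL and 47.7% in IR12, and Car14 made up 10.6% and 3.98%.

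Slc4a4 encodes the sodium bicarbonate cotransporter that carries bicarbonate across the Müller cell endfoot. Its FPKM was 4.20 in CTRL and 2.58 in IR12 (chr14:20479323-20920286 on rn6). The log2 ratio was -0.54 as deposited and -0.05 on the TPM scale, within the 2-fold limit on both, and 15.2% of all genes had a ratio at or under it. The transporter was therefore closer between the libraries than either carbonic anhydrase. Of 11 other bicarbonate, proton and lactate transporter genes, 1 was at least 2-fold lower and 0 were higher, with a median log2 ratio of -0.43 as deposited and 0.12 on the TPM scale. The lower gene was Slc4a7, another sodium bicarbonate cotransporter, known from photoreceptors, at 182 in CTRL and 87.0 in IR12, and on the TPM scale its log2 ratio of -0.41 was within the limit, leaving 0 lower. Bsg, which escorts lactate transporters to the membrane, was the most abundant at 259 and 222.

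Dag1 encodes dystroglycan, the receptor that links laminin and other matrix proteins to dystrophin. Its FPKM of 19.5 in CTRL and 15.4 in IR12 (chr8:116980497-116993193 on rn6) gave a log2 ratio of -0.32. On the TPM scale the sign turned, to 0.30, so no direction is given for Dag1. The ratio was -0.33 with a pseudocount of 0.1, -0.41 with an equal sum without small non-coding RNAs and -0.34 centred on the median gene. Centring on the Müller glia markers gave 0.97.

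Dmd encodes dystrophin, of which retinal glia make a short product from an internal promoter. Its FPKM was 204 in CTRL and 172 in IR12. The log2 ratio of -0.24 became 0.40 on the TPM scale. Like Dag1, it was within the 2-fold limit on both scales and has no direction across them. The ratio was -0.24 with a pseudocount of 0.1, -0.34 with an equal sum without small non-coding RNAs and -0.27 centred on the median gene. Centring on the Müller glia markers gave 1.05. Dmd ranked second of the members in CTRL and first in IR12. Its listed locus, chrX:51286737-53519259 on rn6, also holds 4 other genes of the table, none with an FPKM over 0.0263 in CTRL or 0.0487 in IR12. The value is for the whole gene and does not separate the long and short products.

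In the dystrophin-associated complex, 1 of 8 genes was at least 2-fold lower and 0 were higher, with a median log2 ratio of -0.50. On the TPM scale 0 were lower or higher and the median was 0.11. The lower gene was Sntb1, a syntrophin, at 2.84 in CTRL and 0.862 in IR12. Dtna, a dystrobrevin gene, was at 5.26 and 2.76, and Sgcb, a sarcoglycan and the most abundant of the complex, was at 34.7 and 39.0.

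Dystroglycan ligands gave 1 higher and 1 lower gene of 9, with a median log2 ratio of -0.43, but 2 higher and 0 lower on the TPM scale, with a median of 0.12. Lamc1, a laminin gamma chain, was at 6.31 in CTRL and 22.4 in IR12, whereas Lama1, an alpha chain of the inner limiting membrane, was at 2.48 and 0.649 and had a log2 ratio of -0.79 on the TPM scale. Egflam, which encodes pikachurin, the dystroglycan ligand of the photoreceptor synapse, was at 49.8 and 69.4, with 1.11 on the TPM scale. For the enzymes that build the laminin-binding sugar on dystroglycan, 0 of 10 genes passed the 2-fold limit either way as deposited and 1 was higher on the TPM scale. Their median was -0.03, and 0.57 on the TPM scale.

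**Figure D3:**
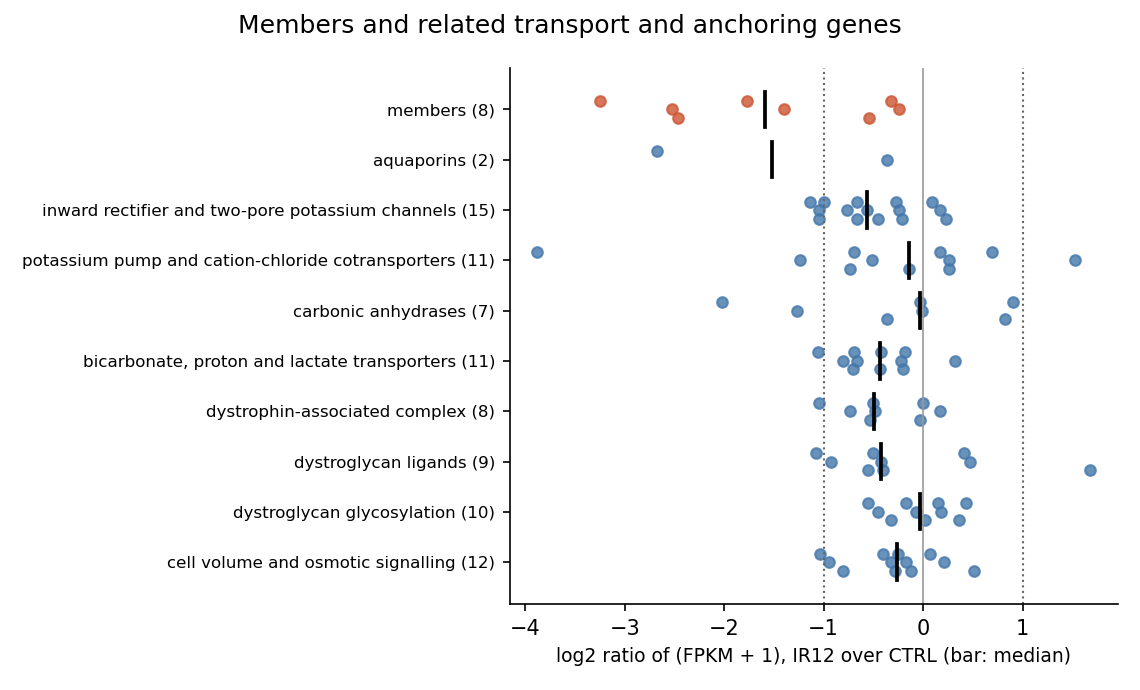
Log2 ratio of FPKM + 1, IR12 over CTRL, of the members and of 9 lists of related genes (points, with the number of genes having sufficient FPKM in parentheses), with list medians as bars and dotted lines at 2-fold. The members' median is -1.59 and that of the potassium channel list is -0.56.

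The Müller glia markers ran from a log2 ratio of -2.57 for Glul to 1.59 for Clu. Aqp4 lay below this range, and the other members with sufficient FPKM lay inside it as deposited. Of the 15 markers, 10 were at least 2-fold lower and 1 was higher in IR12, against 6 lower and 2 higher on the TPM scale. The median marker had a log2 ratio of -1.29 as deposited and -0.66 on the TPM scale. The lowest marker was Glul at -2.57, followed by Gpr37, an orphan receptor of glia, at 48.8 FPKM in CTRL and 8.48 in IR12. Aqp4 was lower than all 15 markers and differed from their median by -1.96. For Car14 the difference from the marker median was -1.23 and for Kcnj10 it was -1.17, with 1 marker at or under each of them. The value for Kcnj10 depended on the settings: the difference was -1.56 on the TPM scale and -2.25 with a pseudocount of 0.1, with 0 markers at or under it in both. Car2 differed from the median by -0.48 and Aqp1 by -0.11, with 4 and 7 of the 15 markers at or under them. Slc4a4, Dag1 and Dmd lay above the marker median, by 0.75, 0.97 and 1.05, with 11, 12 and 12 of the 15 markers at or under them. For Aqp4 the difference was -2.04 on the TPM scale and -2.09 with a pseudocount of 0.1. The choice of markers sets the size of these differences.

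The markers themselves did not all differ in the same direction. Clu, a secreted chaperone, had the highest log2 ratio, being at 223 in CTRL and 673 in IR12. Vim, an intermediate filament of Müller glia, was at 121 and 221, and Hes1, a Notch target, was at 17.1 and 4.10. Genes of reactive gliosis were higher, 9 of 12 by at least 2-fold and 0 lower, with a median of 2.57. Of the higher ones, Nes, Lcn2, Osmr and Edn2 were below an FPKM of 1 in CTRL and entered through IR12 alone. The count and median were thus partly set by the filter. Gfap, the filament that glia accumulate after injury, was at 2.95 in CTRL and 21.9 in IR12. Timp1, a metalloproteinase inhibitor, was at 4.71 and 169, and Cd44, a hyaluronan receptor of Müller microvilli, was at 40.8 and 299. These are values of whole tissue, and which cells held the transcripts was not tested.

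**Figure D4:**
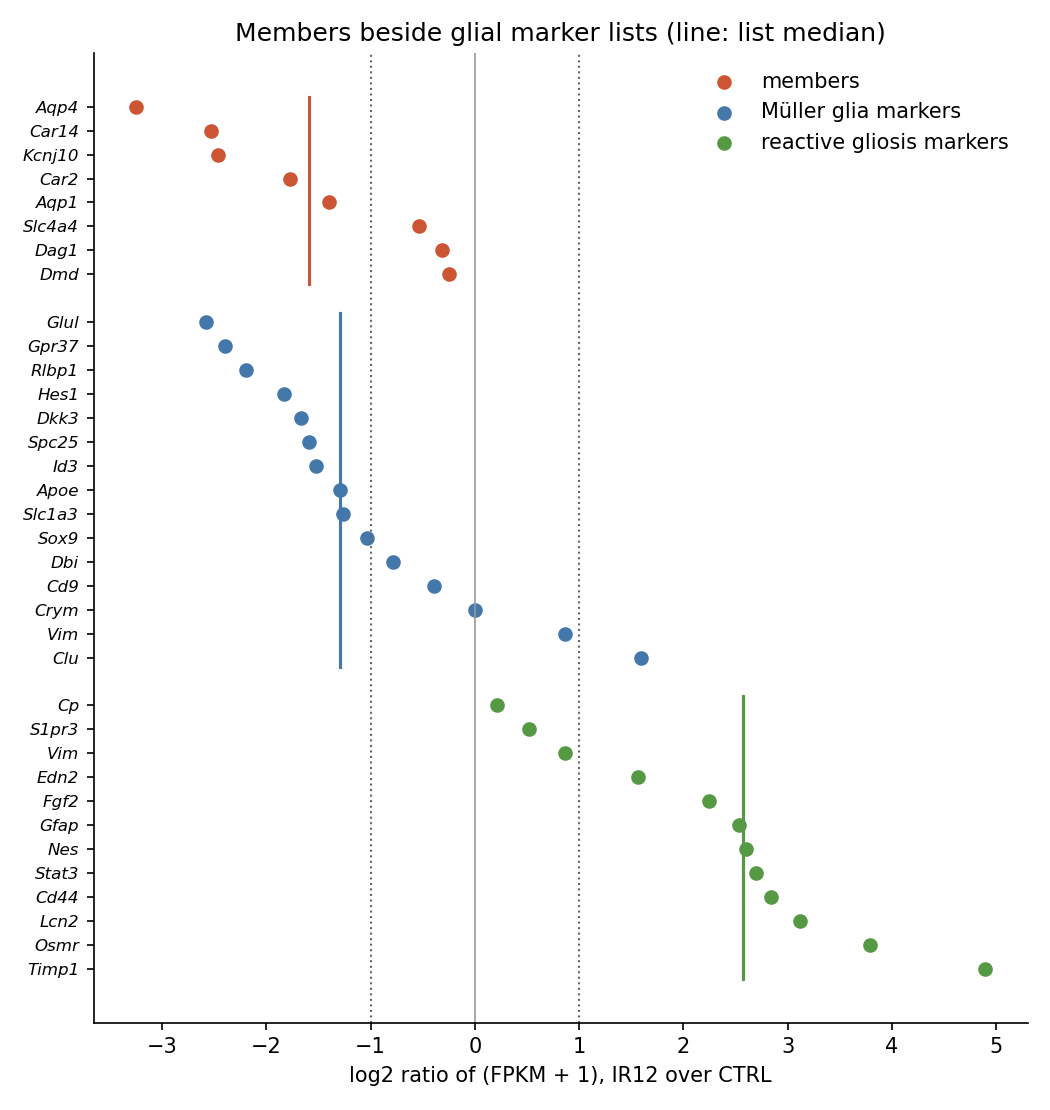
Log2 ratio of FPKM + 1, IR12 over CTRL, of the 8 members with sufficient FPKM, 15 Müller glia markers and 12 reactive gliosis markers (1 point a gene, Vim in both marker lists), with list medians as lines and dotted lines at 2-fold. Medians are -1.59, -1.29 and 2.57.

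Aqp4 is also expressed by the astrocytes of the nerve fibre layer. Of 4 astrocyte markers with sufficient FPKM, 3 were at least 2-fold lower and 1, Gfap, was higher, and the summed FPKM of the 6 markers was 76.8 in CTRL and 36.3 in IR12. Gja1, a gap junction gene and the most abundant of them in CTRL, was at 40.7 and 6.63, and S100b, a calcium-binding protein, was at 25.8 and 5.81. Pax2, the defining transcription factor of retinal astrocytes, was listed at 0 in CTRL and at 0.0317 in IR12. The part of astrocytes in the values of Aqp4 was not tested.

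Among rod markers 0 of 9 passed the limit either way, with a median of 0.07 as deposited and 0.72 on the TPM scale. Of the amacrine markers 1 of 8 was at least 2-fold lower, with a median of -0.82, and 0 were higher. Cone markers had 1 of 7 lower and a median of -0.64, ganglion cell markers 1 of 7 and -0.16, endothelium and mural markers 1 of 9 and -0.24, and pigment epithelium markers 1 of 7 and 0.08. The TPM scale gave these medians as -0.26 for amacrine cells, 0.00 for cones (rounded), 0.47 for ganglion cells, 0.27 for vessels and 0.62 for pigment epithelium, with 0 genes of these lists lower, 2 higher in pigment epithelium and 1 higher among rod markers. Leukocyte markers passed the limit upward in 6 of 10 cases and downward in 0, their summed FPKM being 21.8 in CTRL and 138 in IR12. Of the higher ones, Ptprc, Cd14, S100a8, S100a9 and Itgam entered through IR12 alone, so this count was partly set by the filter. Lyz2, a lysozyme gene, was the most abundant leukocyte marker at 9.73 and 76.9, and S100a8, a neutrophil gene, was at 0 in CTRL. Both cornea markers with sufficient FPKM were higher, and the summed FPKM of the 4 listed was 2.55 and 20.8, with Krt12, a corneal keratin at 0.874 and 12.5, the most abundant in IR12. The part of these cells in the members' values was not tested.

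**Figure D5:**
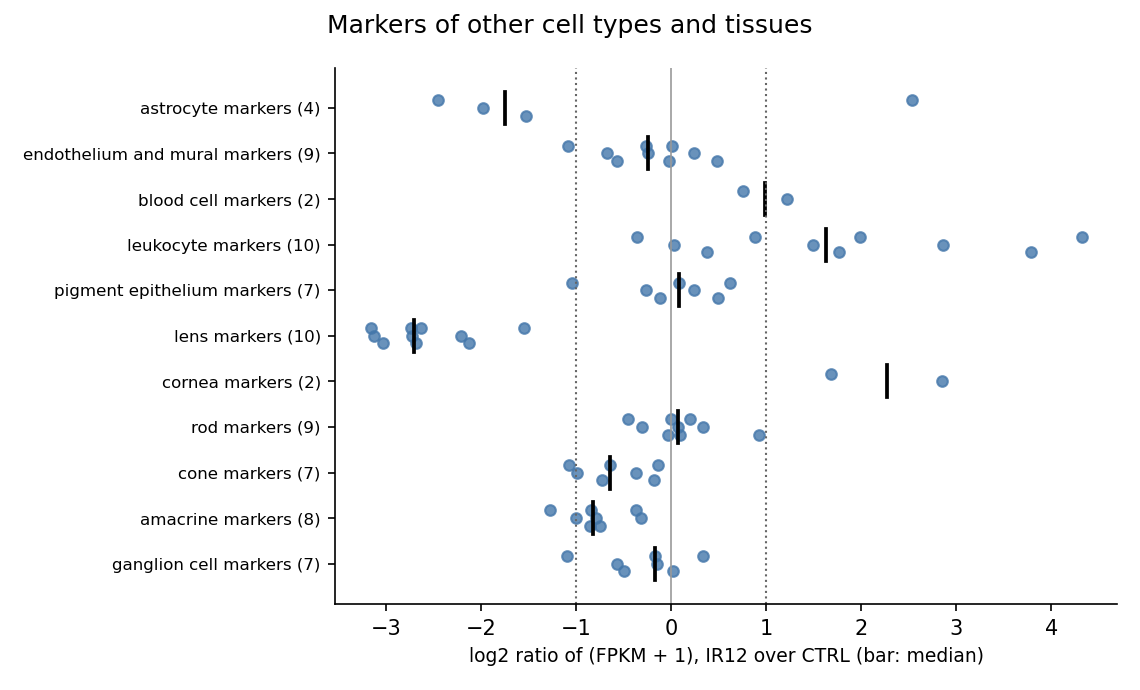
Log2 ratio of FPKM + 1, IR12 over CTRL, of markers of other cell types and tissues (points, with the number of genes having sufficient FPKM in parentheses), with list medians as bars and dotted lines at 2-fold. Lens markers (median -2.70) lie on the low side, leukocyte markers (median 1.63) on the high side, and rod markers (median 0.07) near 0.

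Among 118 related genes, those with levels nearest to Aqp4 and Kcnj10 in log2(FPKM + 1) over the 2 libraries were sought. For Aqp4 the nearest genes included Mip, at a Euclidean distance of 1.79, and Utrn, the dystrophin relative utrophin, at 2.00. For Kcnj10 the nearest was Car6 at 0.601, followed by Kcnj12 and Car5b, both at 1.03. With 2 values per gene, such likeness describes level and difference only.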

How the data were processed

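Total RNA from 2 rat retinas was sequenced after removal of ribosomal RNA, 1 library per condition. The deposited table gives FPKM for each of 32662 genes, with a column for each library. The submitters' processing notes name STAR 2.5.2b, Cuffdiff 2.2.0 and rn6 without giving their roles. Since the table counts start positions from 0, 1 was added to each. Columns were matched to samples by name.

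Log2 ratios used FPKM as deposited with a pseudocount of 1, among genes with an FPKM of at least 1 in at least 1 library, and no test was made. Calculations were done in Python 3.11.15 with numpy 2.4.6 and pandas 2.3.3, figures with matplotlib 3.10.9, and the calculation of ratios and counts was tested on simulated data. The FPKM that 1 read is worth was read from steps in the low values of olfactory receptor genes. These steps include the scaling of the FPKM and were not used as a measure of total reads.

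Named are all 9 members, the Müller glia markers Glul, Rlbp1 and Slc1a3, Gfap, Gapdh and Actb. From each list the gene with the highest mean FPKM and up to 4 genes with the largest ratios were eligible, along with the 3 genes nearest to Aqp4 and to Kcnj10. Kcnj16, Alas2, Slc4a1, Pax2, Nes, Edn2, Ptprc and Cd14 were also named after their values were seen. Some genes eligible by this rule are not reported here. The members and lists were chosen with earlier results of these data known.

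Alternatives were a pseudocount of 0.1, 4 other scalings or centrings (the TPM scale, an equal sum without small non-coding RNAs, the median gene and the median of the Müller glia markers), a minimum FPKM of 5 or none, and a limit of 1.5-fold. Promoter sequences came from RefSeq (GRCr8). Protein sequences were not used here.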

Additional observations from a re-analysis of the deposited data

How the results depend on the processing

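With 1 library per condition, none of the differences has an error, and Trpv4 was too low to compare. The members' counts, 5 at least 2-fold lower and 0 higher, were also found with a pseudocount of 0.1, with an equal sum without small non-coding RNAs, with centring on the median gene, with a minimum FPKM of 5 or none, and with a 1.5-fold limit. On the TPM scale 4 were lower and the median log2 ratio was -0.95. Centring on the Müller glia markers gave 3 members lower, 1 higher (Dmd, at 1.05) and a median of -0.29. Since it subtracts the markers' median of -1.29 from every ratio, it put 9970 of all 13599 genes (73.3%) higher and 214 (1.57%) lower, with a median of 1.31. This centring was planned for the members alone. Of 39 genes of the other lists that were at least 2-fold lower, it put 17 at or above 0, between 0 and 0.26, and left 11 lower. In the other settings the median lay between -1.77 and -1.40. Of 40 alternative values for single members, 26 moved little and 14 moved by more than 1.5-fold or across the limit, among them Kcnj10 at -3.66 with a pseudocount of 0.1. Apart from these 17 genes, no list median or named gene past the 2-fold limit changed sign in the settings above, the marker median itself being 0 after this centring. The factor on IR12 for an equal sum was 1.57 with small non-coding RNAs and 0.933 without them. Why their share differed between the libraries was not tested.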
